A study of Mus musculus with 9 samples.

Results

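The genes described here are 7 that mark early myeloid progenitors, chosen by symbol: Gfi1, Cebpe, Mpo, Elane, Prtn3, Ctsg and Ms4a3. All 7 were found among the 38215 genes of the table, and all 7 were among the 14944 that passed the filter on low counts. RNA was sequenced from bone marrow of C57BL/6J mice that expressed Jak2V617F, an activating mutation of the kinase Jak2 found in myeloproliferative neoplasms, and that had been given tamoxifen. In 5 libraries, titled EV, the genotype was Jak2V617F alone, and in 4 libraries it was Jak2V617F-sgZrsr2, which the series describes as loss of Zrsr2, a factor of the minor spliceosome. Cells were taken at the terminal time point and sorted as LSK cells (lineage-negative, Sca1-positive, Kit-positive) positive for GFP and for mCherry. EV and sg are not spelled out in the labels, and neither the age of the mice, the origin of the 2 fluorescent markers nor the share of cells that had lost Zrsr2 is given. The libraries are numbered 1 to 5 for EV and 1, 2, 3 and 5 for sgZrsr2, as in the titles. Separate mice are not stated for each number, so p-values measure the spread between these samples, which may be technical.

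Primary, or azurophil, granules are the first granules that neutrophil precursors make, at the promyelocyte stage. They store the haem enzyme myeloperoxidase (Mpo) and a family of serine proteases, neutrophil elastase (Elane), proteinase 3 (Prtn3) and cathepsin G (Ctsg), whose genes are switched on in granulocyte-monocyte progenitors and switched off before the neutrophil matures. Ms4a3 is a membrane protein gene used to mark the granulocyte-monocyte lineage. Gfi1, a transcriptional repressor, and Cebpe, a member of the C/EBP family of transcription factors, are needed for neutrophil differentiation, Cebpe above all for the secondary granules that follow. LSK cells hold stem cells and multipotent progenitors, and these genes are known there as an early sign of myeloid priming.

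Depth was 23238242 to 45585510 counts per library. Zrsr2 was at 50.6, 51.9, 62.2, 51.7 and 50.7 CPM (a gene's count relative to the TMM-scaled total of its library) in EV 1 to 5 and at 39.4, 44.4, 40.04 and 31.7 CPM in sgZrsr2 1, 2, 3 and 5, so the groups did not overlap (two-sided exact permutation p = 0.0159). In edgeR the difference for Zrsr2 was -0.46 on the log2 scale (SE 0.12; adjusted p = 0.714). Jak2 was at 54.7 to 87.6 CPM with EV and 84.7 to 93.5 CPM with sgZrsr2. Of the genes that encode the sorted antigens, Kit was at 247 to 632 CPM and Ly6a, which encodes Sca1, at 14.8 to 49.3 CPM over the 9 libraries. Ly6g, a surface antigen of mature neutrophils that lineage depletion removes, did not pass the filter. Of 9 lineage antigens listed, however, 6 passed it, among them Itgam, a myeloid antigen, at 17.3 to 48.0 CPM over the 9 libraries. Several libraries stood apart. Those numbered sgZrsr2 1 and 2 were the nearest pair, and EV 5, sgZrsr2 3 and sgZrsr2 5 had Car1, an early erythroid gene, at 25.4, 39.3 and 35.5 CPM where the other 6 libraries had at most 0.422 CPM.

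For none of the 7 genes did the sgZrsr2 and EV libraries differ past an adjusted p of 0.05 (edgeR quasi-likelihood fit, Benjamini-Hochberg over all genes), where the share of all genes called was 0.0% (0 of 14944). With the DESeq2 Wald test 16 genes passed, none of them among the 7. The log2 fold change was above 0 for 4 of the 7 (Gfi1, Cebpe, Mpo and Elane) and below 0 for 3 (Prtn3, Ctsg and Ms4a3), with a median of 0.11. Over all genes tested it was above 0 for 48.5% and below 0 for 51.5%, and the median was -0.01. The median of the 7 ran from 0.03 (without EV 5, or without sgZrsr2 2) to 0.26 (without EV 4) with 1 library left out, and was 0.28 with the library number as a block. EV 4, the only library of its number, adds nothing to the group difference in that block fit. At an unadjusted p under 0.05 there was 1 of the 7, Elane, against 6.85% of all genes. In none of the 7 did the groups fail to overlap in CPM, against 3.06% of all genes.

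**Figure D1:**
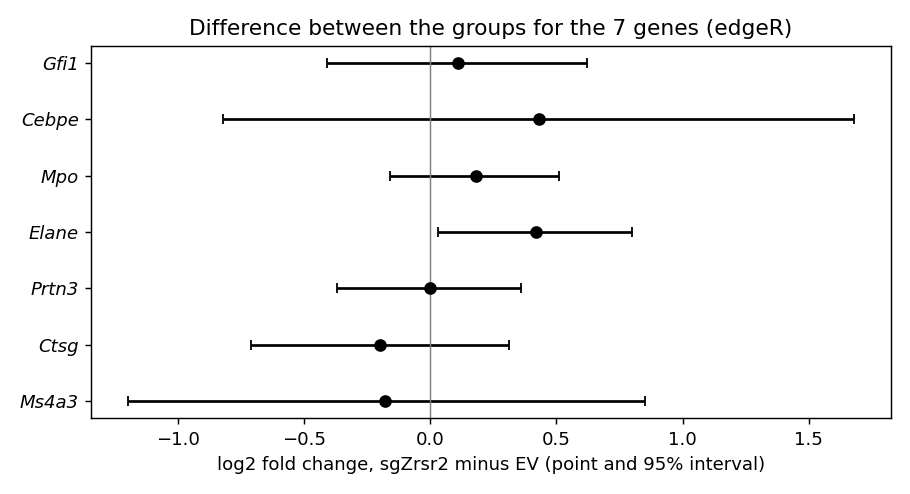
Log2 fold change of each gene, sgZrsr2 minus EV (horizontal axis), with its 95% interval from edgeR. The interval of Elane runs from 0.03 to 0.80, and those of the other 6 genes include 0.

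Mpo encodes the peroxidase that makes hypochlorous acid from hydrogen peroxide in the phagosome. It was at 2501, 2772, 2692, 2053 and 2599.95 CPM in EV 1 to 5. The sgZrsr2 libraries 1, 2, 3 and 5 had 2525, 2951, 2291 and 3644 CPM. The highest library was sgZrsr2 5 and the lowest EV 4, while the other 7 lay between these in an order that mixed the groups. The EV mean was 2523 ± 282 CPM (SD, n = 5) and the sgZrsr2 mean 2853 ± 594 CPM (SD, n = 4), a log2 fold change of 0.18 (SE 0.15; edgeR adjusted p = 0.772; two-sided exact permutation p = 0.365). It was 0.04 without sgZrsr2 5, 0.11 without EV 4, 0.27 without sgZrsr2 3 and 0.09 with the library number as a block. These values rested on 56712 to 130967 counts, so counting error was small beside the spread between libraries. Mpo (chromosome 11, 87793581 to 87804413, plus strand, GRCm38) overlaps the antisense gene Gm11505. Whether reads were counted by strand is not given, and the expected counts of Mpo were whole in 0 of 9 libraries. Gm11505 stood at 2.22% to 2.48% of Mpo in every library.

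Elane encodes neutrophil elastase, which degrades bacterial proteins and extracellular matrix, and whose inherited mutations cause neutropenia. It was at 209, 217, 212, 125.8 and 223 CPM in EV 1 to 5. In sgZrsr2 1, 2, 3 and 5 the level was 218, 316, 246 and 273 CPM. Of the sgZrsr2 libraries 3 lay above all 5 EV libraries, and sgZrsr2 1 lay below EV 5, so the groups overlapped by this one library. The means were 198 ± 40.4 (SD, n = 5) and 263 ± 41.9 CPM (SD, n = 4), 1.33 times as high with sgZrsr2. The log2 fold change was 0.42 (SE 0.18, 95% interval 0.03 to 0.80) with an unadjusted edgeR p of 0.0383, an adjusted p of 0.714 and a two-sided exact permutation p of 0.0317, where 0.0159 is the smallest that 5 against 4 can give. Without EV 4 the log2 fold change was 0.29, with an unadjusted edgeR p of 0.0473 and an adjusted p of 0.976. Without EV 5, sgZrsr2 3 and sgZrsr2 5, the libraries high in Car1, it was 0.49, with an unadjusted edgeR p of 0.0790 and an adjusted p of 0.506. The unadjusted p was also above 0.05 without sgZrsr2 2 (0.123) and without sgZrsr2 5 (0.0758), and with the library number as a block (0.0757). The gene lies on chromosome 10 at 79886312 to 79888216, plus strand, and its counts were whole in 9 of 9 libraries, from 4898 to 10113.

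Prtn3 encodes proteinase 3, the autoantigen of ANCA vasculitis, and lies 3138 bases before Elane on the same strand (chromosome 10, 79874476 to 79883174). It was at 531, 637, 707, 738 and 484 CPM in EV 1 to 5. The sgZrsr2 libraries 1, 2, 3 and 5 had 674, 732, 473 and 596 CPM. Both groups spanned nearly the same range, with EV 4 at the top and sgZrsr2 3 at the bottom. The means were 619 ± 109.8 (SD, n = 5) and 619 ± 112 CPM (SD, n = 4), a log2 fold change of -0.0017 (SE 0.17, 95% interval -0.37 to 0.36; edgeR adjusted p = 0.997). Its sign turned in 3 of the 9 alternative fits and in 5 of the 9 that each left out a library, between -0.10 and 0.15. A transcript of Prtn3 overlaps the start of BC005764 on the other strand, and the counts of Prtn3 were whole in 1 of 9 libraries.

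Ctsg encodes cathepsin G, a protease of chymotrypsin-like specificity, and lies on chromosome 14 (56099881 to 56102574, minus strand) in the same cluster as Mcpt8 and Gzmb. It was at 371, 392, 399.7, 592 and 296 CPM in EV 1 to 5. In sgZrsr2 1, 2, 3 and 5 the level was 381, 420.1, 214 and 411 CPM. Both extremes were again EV 4, the highest, and sgZrsr2 3, the lowest. The means were 410.3 ± 109.8 (SD, n = 5) and 357 ± 96.5 CPM (SD, n = 4), a log2 fold change of -0.20 (SE 0.23; edgeR adjusted p = 0.828; two-sided exact permutation p = 0.524). It was -0.03 without EV 4 and -0.02 without sgZrsr2 3, so either of these libraries decided its size.

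Ms4a3 (chromosome 19, 11629497 to 11640834, minus strand) encodes a protein that crosses the membrane several times and slows the cell cycle when expressed. It was at 35.5, 39.9, 51.1, 149 and 32.1 CPM in EV 1 to 5. The sgZrsr2 libraries 1, 2, 3 and 5 had 65.7, 73.5, 27.4 and 51.0 CPM. EV 4 stood far above the other 8 libraries, and sgZrsr2 3 was again the lowest. The means were 61.5 ± 49.4 (SD, n = 5) and 54.4 ± 20.3 CPM (SD, n = 4), a log2 fold change of -0.18 (SE 0.46; edgeR adjusted p = 0.926; two-sided exact permutation p = 0.984). Without EV 4 the log2 fold change turned to 0.45 (edgeR adjusted p = 0.976), and without sgZrsr2 3 to 0.04.

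Gfi1 (chromosome 5, 107716657 to 107726036, minus strand) encodes a zinc finger repressor that restrains stem cell cycling and directs progenitors to granulocytes. It was at 59.1, 57.8, 27.2, 71.7 and 40.8 CPM in EV 1 to 5. In sgZrsr2 1, 2, 3 and 5 the level was 53.4, 63.3, 52.3 and 52.0 CPM. All 4 sgZrsr2 libraries lay inside the range of the EV libraries, which was set by EV 3 at the bottom and EV 4 at the top. The means were 51.3 ± 17.4 (SD, n = 5) and 55.2 ± 5.41 CPM (SD, n = 4), a log2 fold change of 0.11 (SE 0.24; edgeR adjusted p = 0.914). It was -0.06 without EV 3, 0.26 without EV 4, and 0.03 without EV 5 or without sgZrsr2 2. The gene A430072P03Rik overlaps its start on the other strand at 0.989 to 1.95 CPM, and the counts of Gfi1 were whole in 9 of 9 libraries.

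Cebpe (chromosome 14, 54710363 to 54712174, minus strand) was the lowest of the 7, on 25 to 308 counts. It was at 4.32, 4.04, 0.779, 2.33 and 6.84 CPM in EV 1 to 5. The sgZrsr2 libraries 1, 2, 3 and 5 had 2.003, 2.92, 7.49 and 7.21 CPM. The 3 highest libraries were sgZrsr2 3, sgZrsr2 5 and EV 5, in both groups, and EV 3 was the lowest, 9.61 times below the highest. The means were 3.66 ± 2.28 (SD, n = 5) and 4.91 ± 2.85 CPM (SD, n = 4), a log2 fold change of 0.43 (SE 0.57, 95% interval -0.82 to 1.68; edgeR adjusted p = 0.850). The 3 libraries high in Cebpe were those high in Car1, and without them the log2 fold change turned to -0.21 (edgeR adjusted p = 0.937). Without EV 5 alone it was 0.78 and without sgZrsr2 3 alone 0.15. In bulk RNA, fewer cells of a type and less RNA per cell cannot be told apart.

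**Figure D2:**
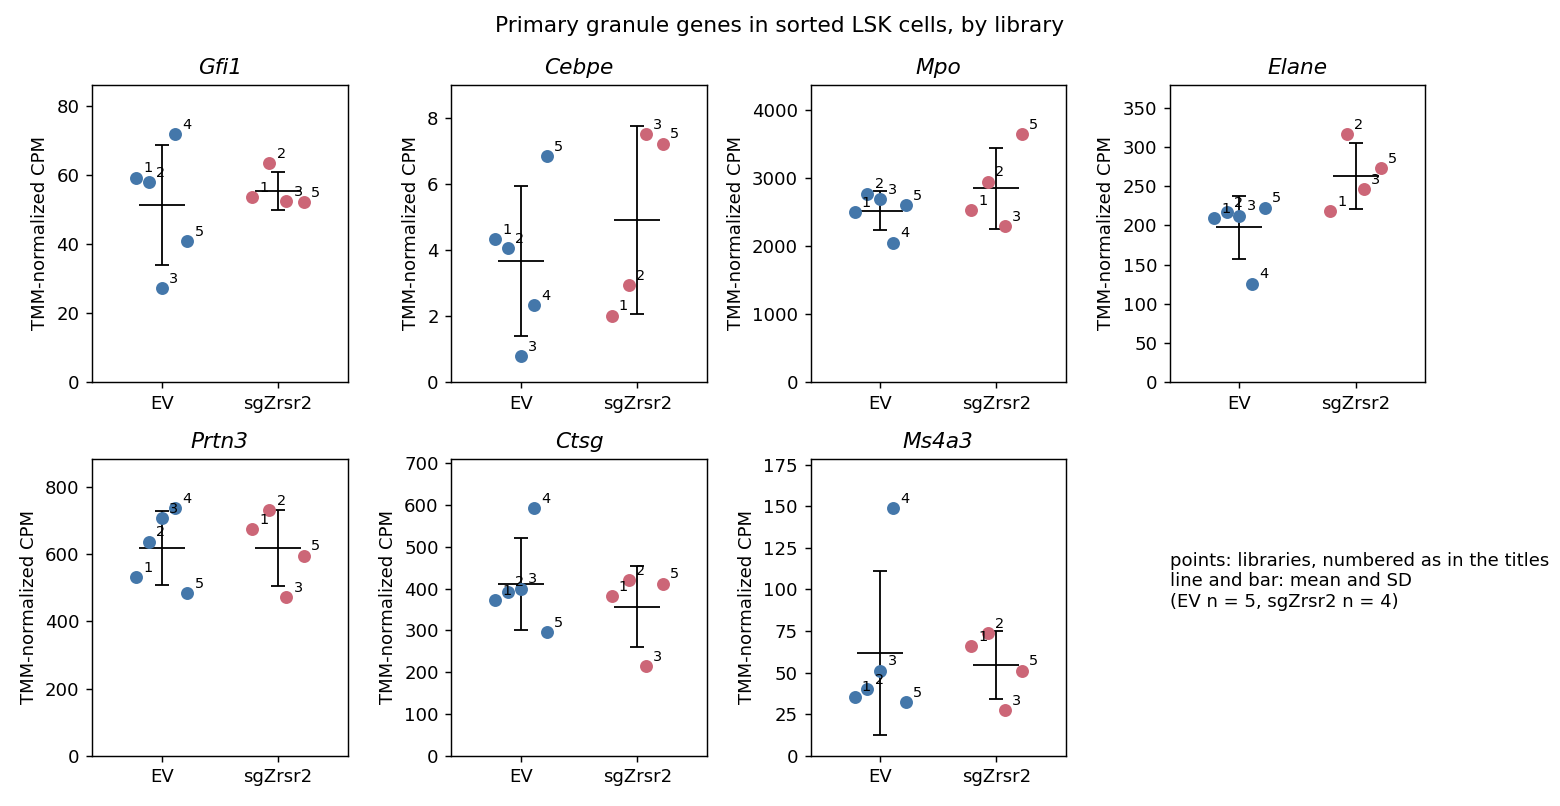
TMM-normalized CPM of the 7 genes (vertical axis, from 0) in 5 EV and 4 sgZrsr2 libraries. Points are libraries with the number of their title, and lines and bars give the mean and SD. The groups overlap in every panel, and EV 4 is the highest library for Gfi1, Prtn3, Ctsg and Ms4a3 and the lowest for Mpo and Elane.

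Levels of the genes against each other were compared per kilobase of the longest protein-coding transcript (GENCODE M21). Mpo was highest, at 918 ± 103 CPM per kilobase with EV (SD, n = 5) and 1037 ± 216 with sgZrsr2 (SD, n = 4). Prtn3 followed at 604 ± 107 and 604 ± 109, Ctsg at 409 ± 109.5 and 356 ± 96.3, and Elane at 201 ± 41.1 and 268 ± 42.6. Far below stood Ms4a3 at 60.9 ± 48.9 and 53.9 ± 20.1, Gfi1 at 17.9 ± 6.08 and 19.3 ± 1.89, and Cebpe at 2.95 ± 1.83 and 3.95 ± 2.30. The steps from Mpo to Prtn3, from Ms4a3 to Gfi1 and from Gfi1 to Cebpe held in 9 of 9 libraries with ranges that did not overlap, though Ms4a3 exceeded Gfi1 in 8 of 9 per kilobase of all exons. Prtn3 exceeded Ctsg in 9 of 9 libraries, but their ranges overlapped, and per kilobase of all exons of the gene it did so in 4 of 9. Ctsg exceeded Elane in 8 of 9 libraries, and Elane exceeded Ms4a3 in 8 of 9. Together the 7 genes took 0.331% to 0.503% of the counts of a library, of which Mpo made up 55.0% to 72.4%.

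The proteases and Mpo are classical targets of PU.1, C/EBP and MYB factors, and the 250 bases before the start sites of these 4 genes are shown to compare the letters that such factors are known to prefer. The sequences are from RefSeq on GRCm38.p6, and capitals mark 4 motifs searched on both strands. The PU.1 motif was AGGAAGT. For MYB the letters were AACGG. For C/EBP factors they were GCAAT, and for the TATA box TATAA. The letters were chosen after the promoters had been read. A match is a description of the letters, not of binding.
Elane, chr10:79886062-79886311, plus strand: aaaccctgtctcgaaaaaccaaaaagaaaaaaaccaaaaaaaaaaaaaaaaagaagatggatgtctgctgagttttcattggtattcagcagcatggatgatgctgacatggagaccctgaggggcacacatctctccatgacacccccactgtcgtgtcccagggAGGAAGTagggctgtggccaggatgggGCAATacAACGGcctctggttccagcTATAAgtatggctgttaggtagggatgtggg
Prtn3, chr10:79879417-79879666, plus strand: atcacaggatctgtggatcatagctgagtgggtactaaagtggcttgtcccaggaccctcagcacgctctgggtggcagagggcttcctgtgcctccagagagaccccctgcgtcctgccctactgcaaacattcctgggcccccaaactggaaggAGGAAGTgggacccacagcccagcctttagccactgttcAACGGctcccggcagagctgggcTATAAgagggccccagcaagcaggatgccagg
Mpo, chr11:87793534-87793783, plus strand: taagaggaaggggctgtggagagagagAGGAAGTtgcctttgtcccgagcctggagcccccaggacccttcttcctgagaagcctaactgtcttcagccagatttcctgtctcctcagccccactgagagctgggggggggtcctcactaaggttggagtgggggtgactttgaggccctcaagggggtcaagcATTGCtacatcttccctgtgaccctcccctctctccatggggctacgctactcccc
Ctsg, chr14:56102575-56102824, minus strand: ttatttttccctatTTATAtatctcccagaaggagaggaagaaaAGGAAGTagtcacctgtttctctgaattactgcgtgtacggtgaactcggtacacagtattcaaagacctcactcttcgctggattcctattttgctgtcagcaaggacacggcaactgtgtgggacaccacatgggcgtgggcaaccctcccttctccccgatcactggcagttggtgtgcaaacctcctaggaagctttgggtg

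Elane and Prtn3, the neighbours on chromosome 10, held the PU.1, MYB and TATA motifs in the same order, beginning 84, 50 and 31 bases before the start of Elane and 94, 55 and 32 bases before that of Prtn3. Over the windows from 250 bases before to 50 after the start, the PU.1 motif was found for Elane, Prtn3, Mpo and Ctsg, which is 4 of the 7 windows of 6 genes with an entry, against 9.35% of all 32851 windows. Because the letters were chosen after these promoters had been read, the shares given here are no test of enrichment. The MYB motif was found in 2 of the 7 windows (17.4% of all), the C/EBP motif in 3 (26.4% of all) and the TATA motif in 3 (24.9% of all). For Ctsg the TATA letters were on the other strand and began 236 bases before the start, unlike those of Elane and Prtn3. The C/EBP motif began 57 bases before the start of Elane and, on the other strand, 56 bases before that of Mpo. For GFI1 the letters searched were AATCA, which were in 0 of the 7 windows and in 37.0% of all. The windows of Prtn3 and Elane share a cluster. The starts used for Mpo, Prtn3 and Gfi1, which has 2 windows, lie inside the bounds given for these genes. That of Prtn3 lies farthest in.

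The 7 genes did not vary as a block across the libraries. Prtn3, Ctsg and Ms4a3 kept nearly one order: EV 4 was the highest and sgZrsr2 2 the second for each, and sgZrsr2 3 was the lowest and EV 5 next to lowest for each. Over the 9 libraries the correlation of log2 CPM was 0.83 for Prtn3 with Ctsg (Spearman 0.88), 0.84 for Prtn3 with Ms4a3 (Spearman 0.97) and 0.87 for Ctsg with Ms4a3 (Spearman 0.88). It was 0.56, 0.75 and 0.70 without the 2 libraries farthest from the median of the first gene. These are descriptions over 9 libraries that share depth, scaling and sorting, out of 21 pairs. Mpo and Elane had a correlation of 0.73 (Spearman 0.60), which was 0.43 without sgZrsr2 5 and EV 4.

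Elane and its neighbour Prtn3 did not rise and fall together, with a correlation of -0.22 (Spearman -0.27) over the 9 libraries. The ratio of Elane to Prtn3 CPM was 0.394, 0.341, 0.300, 0.171 and 0.461 in EV 1 to 5 and 0.323, 0.432, 0.521 and 0.458 in sgZrsr2 1, 2, 3 and 5. The ratio of Ctsg to Elane was 4.71 in EV 4, between 1.33 and 1.88 in the other EV libraries, and between 0.870 and 1.75 in the sgZrsr2 libraries. Ms4a3 exceeded Elane in CPM in EV 4 alone, at a ratio of 1.18, and stood at 0.111 to 0.301 of it in the other 8 libraries. Both ends of this scale were therefore single libraries, EV 4 of the EV group and sgZrsr2 3 of the sgZrsr2 group.

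**Figure D3:**
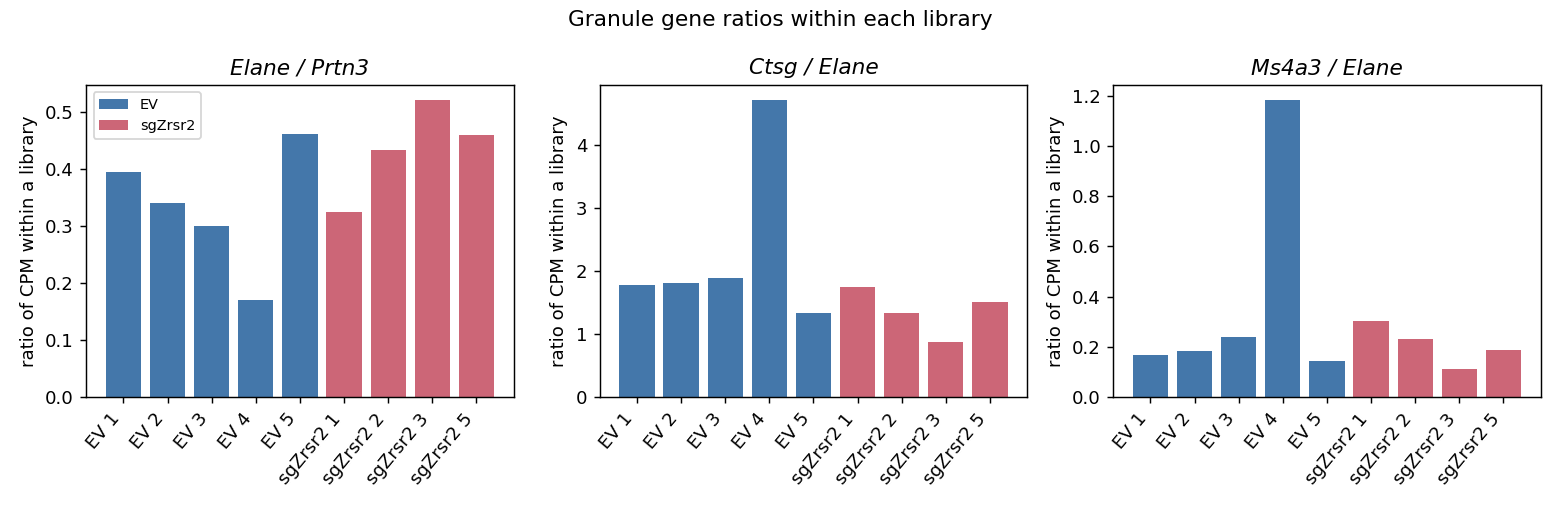
Ratio of TMM-normalized CPM within each library (vertical axes, from 0) for Elane to Prtn3, Ctsg to Elane and Ms4a3 to Elane. Bars are libraries, blue for EV and red for sgZrsr2. EV 4 has the lowest ratio of Elane to Prtn3, 0.171, and the highest of Ctsg to Elane, 4.71.

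Cebpe went against the 3 genes that moved together. Its correlation was -0.76 with Prtn3 (Spearman -0.82), -0.51 with Ctsg (Spearman -0.50) and -0.51 with Ms4a3 (Spearman -0.75), and -0.85, -0.79 and -0.81 without EV 3 and sgZrsr2 1. Gfi1 and Cebpe had a correlation of 0.39 (Spearman -0.15) that turned to -0.53 without EV 3 and EV 4. EV 3 was the lowest library for both of these transcription factors, yet it had the fourth highest level of Mpo, Ctsg and Ms4a3. The ratio of Cebpe to Gfi1 was 0.168, 0.143 and 0.139 in EV 5, sgZrsr2 3 and sgZrsr2 5 and 0.0287 to 0.0731 in the other 6 libraries.

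**Figure D4:**
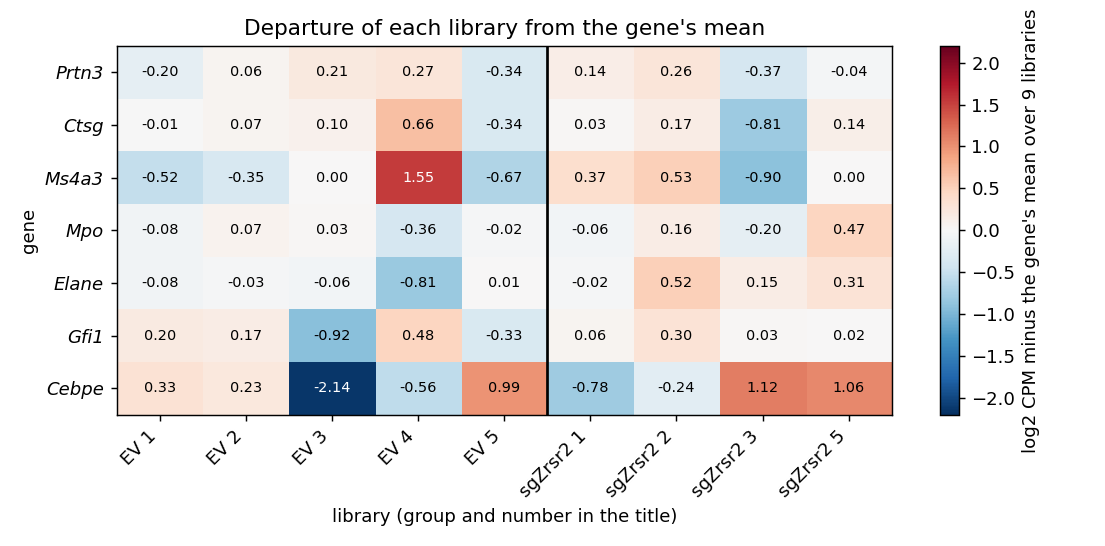
Log2 CPM of each gene in each library minus the gene's mean over the 9 libraries, as colour and number; genes are rows, in an order chosen after the values were seen, and libraries are columns. Prtn3, Ctsg and Ms4a3 are highest in EV 4 and lowest in sgZrsr2 3, and Cebpe is lowest in EV 3.

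Other genes of the primary granules and of their assembly did not pass the test either. Of 20 listed, 19 were tested: 10 had a log2 fold change above 0 and 9 below, none passed the adjusted threshold, and the median was 0.05. Calr, a chaperone of Mpo folding, averaged 1341 ± 157 CPM over the EV libraries (SD, n = 5) and 1268 ± 206 CPM over the sgZrsr2 libraries (SD, n = 4), and Psap, a lysosomal precursor protein, at 932 ± 283 and 805 ± 85.4 CPM. The extremes of the list were Lyz2, lysozyme, with a log2 fold change of 0.31 (SE 0.20; edgeR adjusted p = 0.734), and Ctsc, the peptidase that activates the granule proteases, with -0.28 (SE 0.17; edgeR adjusted p = 0.724).

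Of 20 further genes of granulocyte-monocyte progenitors and promyelocytes, 10 lay above 0 and 10 below, with a median of -0.03 and none called. In 1 of the 20, Gstm1, the groups did not overlap, against 3.06% of all genes. Gstm1 was at 43.4 to 80.6 CPM with EV and 80.8 to 103.8 CPM with sgZrsr2 (log2 fold change 0.48, SE 0.17, edgeR adjusted p = 0.714). Plac8 was at 641 ± 98.8 and 596 ± 51.9 CPM and Emb at 453 ± 121 and 361 ± 101 CPM, with EV first. Alox5, 5-lipoxygenase, had the highest log2 fold change, 1.02 (SE 0.68; edgeR adjusted p = 0.737), and was at 9.77, 16.7 and 21.1 CPM in EV 5, sgZrsr2 3 and sgZrsr2 5 against 1.29 to 5.87 CPM in the other 6 libraries. Dmkn had the lowest, -0.53 (SE 0.69; edgeR adjusted p = 0.846), and like Ms4a3 it stood highest in EV 4, at 10.9 CPM against 0.960 to 3.84 CPM elsewhere.

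Of 27 transcription factors and cofactors that act on granule genes, 10 lay above 0 and 17 below, with a median of -0.13, and none was called. Gata2, a stem cell and mast cell factor, had the highest log2 fold change, 0.46 (SE 0.16; edgeR adjusted p = 0.714), and Lef1 the lowest, -1.28 (edgeR adjusted p = 0.757), at a level of 0 to 3.69 CPM. The most abundant were Egr1, at 1167 ± 565 with EV and 1151 ± 379 CPM with sgZrsr2, and Etv6, at 535 ± 88.8 and 464 ± 70.6 CPM. In 3 of the 27 the groups did not overlap, against 3.06% of all genes: Meis1 (0.26, SE 0.10) and Rcor1 (0.18, SE 0.10) were higher and Hdac1 (-0.19, SE 0.09) lower with sgZrsr2, each with an edgeR adjusted p of 0.714. Rcor1 and Hdac1, which went in opposite directions, encode parts of the corepressor complex that Gfi1 recruits. For Kdm1a and Hdac2, further parts in the list, the groups overlapped. Kdm1a was at 112 to 149 CPM with EV and 113 to 136 CPM with sgZrsr2, and Hdac2 at 116 to 134 and 96.6 to 125 CPM.

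In the same list, 2 factors were singled out after their values were seen, out of 189 pairs of a factor and a granule gene. Cebpa, which opens the granulocyte-monocyte programme, was at 169, 198, 269.7, 260.3 and 139 CPM in EV 1 to 5 and at 169.8, 205, 139 and 195 CPM in sgZrsr2 1, 2, 3 and 5. Its lowest libraries were EV 5 and sgZrsr2 3, as for Prtn3, Ctsg and Ms4a3, and its correlation with these was 0.86, 0.82 and 0.72 (0.67, 0.65 and 0.52 without EV 5 and sgZrsr2 3). The other members did not share this: the correlation of Cebpa was 0.02 with Mpo, -0.39 with Elane, -0.09 with Gfi1 and -0.75 with Cebpe. Irf8, which directs progenitors to monocytes and dendritic cells and away from neutrophils, was at 715, 696, 320.4, 129 and 466 CPM in EV 1 to 5 and at 197, 180.4, 654 and 463 CPM in sgZrsr2 1, 2, 3 and 5. It was lowest in EV 4, where Ms4a3 was highest, and their correlation was -0.91 (-0.80 without EV 4 and sgZrsr2 2). With Prtn3 and Ctsg the correlation of Irf8 was -0.76 and -0.65. With Mpo, Elane, Gfi1 and Cebpe it was 0.23, 0.32, -0.21 and 0.56. Cebpa and Irf8 were not alone in this, as other factors of the list had correlations of like size. That of Id1 was 0.89 with Prtn3, 0.70 with Ctsg and 0.70 with Ms4a3 (0.95, 0.76 and 0.71 without sgZrsr2 3 and sgZrsr2 5). Rcor1 had 0.91 with Elane, and Myb and Id2 had 0.91 and -0.94 with Cebpe.

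The receptors of myeloid cytokines showed 4 genes above 0 and 6 below of 10, with a median of -0.10 and none called. Kit had the highest log2 fold change, 0.38 (SE 0.23; edgeR adjusted p = 0.723), and Csf2rb2 the lowest, -0.61 (SE 0.41; edgeR adjusted p = 0.737). Flt3, a receptor of multipotent and lymphoid progenitors, was at 412 ± 113 CPM with EV and 317 ± 61.6 with sgZrsr2 (edgeR adjusted p = 0.722).

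Of 16 genes of the secondary granules and of mature neutrophils, 14 were tested, 9 above 0 and 5 below, with a median of 0.16 and none called; without sgZrsr2 3 the median was -1.03. Their summed level was 339 CPM in EV 5 and 409.7 CPM in sgZrsr2 3, where Prtn3, Ctsg and Ms4a3 were lowest, and 150.3 to 216 CPM in the other 7 libraries. Ltf, lactoferrin, was at 29.9 and 30.04 CPM in those 2 libraries and at most 6.17 CPM elsewhere, and Ngp at 43.0 and 53.2 CPM against at most 17.2 CPM. The list was not uniform: in EV 4, the highest library of Prtn3, Ctsg and Ms4a3, Ltf was at 0.0888 CPM, while Lcn2 (44.4 CPM), Chi3l3 (19.8 CPM), Mmp8 (7.04 CPM) and Padi4 (73.3 CPM) had their highest levels there. Ltf, Ngp, Lcn2 and Mmp8 were named after their values were seen. The most abundant genes of the list were Padi4, at 67.9 ± 5.52 and 66.7 ± 4.86 CPM, and Cybb, at 31.7 ± 4.12 and 35.2 ± 9.76 CPM with EV and sgZrsr2, and its extremes were Chi3l3 (0.59, SE 0.59; edgeR adjusted p = 0.807) and Retnlg (-1.03, SE 1.31; edgeR adjusted p = 0.842). The part of this list in the differences of the primary granule genes was not tested.

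Monocyte genes lay below 0 in 11 of 13, with a median of -0.47 and none called. Their summed level was 869 CPM in EV 4, the lowest of all libraries, 1245 to 2066 CPM in the other EV libraries and 1043 to 1431 CPM with sgZrsr2. F13a1 was at 331 ± 127 CPM with EV and 221 ± 56.6 with sgZrsr2 (edgeR adjusted p = 0.714), and Fn1 had the highest log2 fold change, 0.08. In 1 of the 13, Ctss, the groups did not overlap, against 3.06% of all genes. Ctss was at 49.3 to 82.9 CPM with EV and 36.2 to 47.1 CPM with sgZrsr2 (log2 fold change -0.47, SE 0.16, edgeR adjusted p = 0.714). The part of this list in the values of EV 4 was not tested.

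Mast cells, basophils and eosinophils also store serine proteases, and Ctsg lies in the cluster of their protease genes. Of 14 genes, 8 were tested, 7 above 0 and 1 below, with a median of 0.21 and none called. The median turned to -0.25 without sgZrsr2 5 and to -0.31 without EV 5, sgZrsr2 3 and sgZrsr2 5, and was 0.06 without EV 2 and 0.58 without EV 4. Their summed level was 144, 142 and 208 CPM in EV 5, sgZrsr2 3 and sgZrsr2 5, where Cebpe was highest, and 54.6 to 129 CPM in the other 6 libraries. Cpa3 was at 20.5 ± 6.35 CPM with EV and 30.8 ± 9.44 with sgZrsr2 (log2 fold change 0.59, SE 0.25; edgeR adjusted p = 0.714) and Hdc at 21.9 ± 7.86 and 25.9 ± 8.06 CPM. Prg2 had the highest log2 fold change, 1.15, and Gzmb the lowest, -0.15. Mcpt8, the nearest expressed neighbour of Ctsg at 14665 bases, was at 12.7 to 32.4 CPM and had its highest level in sgZrsr2 5, not in EV 4. The part of this list in the values of Cebpe was not tested.

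In the lists of other lineages and of the sorted cells none was called. The median log2 fold change was 1.35 for 12 erythroid genes (11 above 0), 0.95 for 14 megakaryocyte genes (14 above 0), -0.37 for 14 lymphoid genes (1 above 0), 0.06 for 12 stem cell and LSK genes (9 above 0) and -0.12 for 6 lineage antigens (3 above 0). Without EV 5, sgZrsr2 3 and sgZrsr2 5 the erythroid median was 0.10, the megakaryocyte one 0.26 and the lymphoid one -1.49. With 1 library left out, the erythroid median was 0.76 without sgZrsr2 3 and 2.06 without EV 5, and the megakaryocyte one 0.60 without sgZrsr2 3 and 0.54 without sgZrsr2 5. The lymphoid median was -0.05 without EV 1 and -1.01 without sgZrsr2 3, that of stem cell and LSK genes -0.04 without sgZrsr2 3, and that of lineage antigens 0.20 without EV 1. The summed erythroid level was 439 to 631 CPM with EV and 438 to 824 CPM with sgZrsr2, the summed megakaryocyte level 307 to 531 CPM and 534 to 785 CPM, and the summed lymphoid level 486 to 5197 CPM and 936 to 3462 CPM. Abundant genes weighed most in these sums, such as Tfrc and Car2, Itga2b and Selp, and Ighm, at 4580 CPM in EV 5. Tfrc had the lowest erythroid log2 fold change, -0.51. In 0 of the 14 megakaryocyte genes tested did the groups fail to overlap, against 3.06% of all genes. EV 4 was at the low end of the lymphoid sums, with 486 CPM, and of the stem cell and LSK sums, with 1129.85 CPM against 1218 to 1694 CPM elsewhere. The stem cell and LSK list was not uniform in EV 4: Cd34 had its lowest level there, 544 CPM, and Ly6a its highest, 49.3 CPM. No gene of these lists was at 0 in all 9 libraries. The part of these cells in the levels of the 7 genes was not tested.

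**Figure D5:**
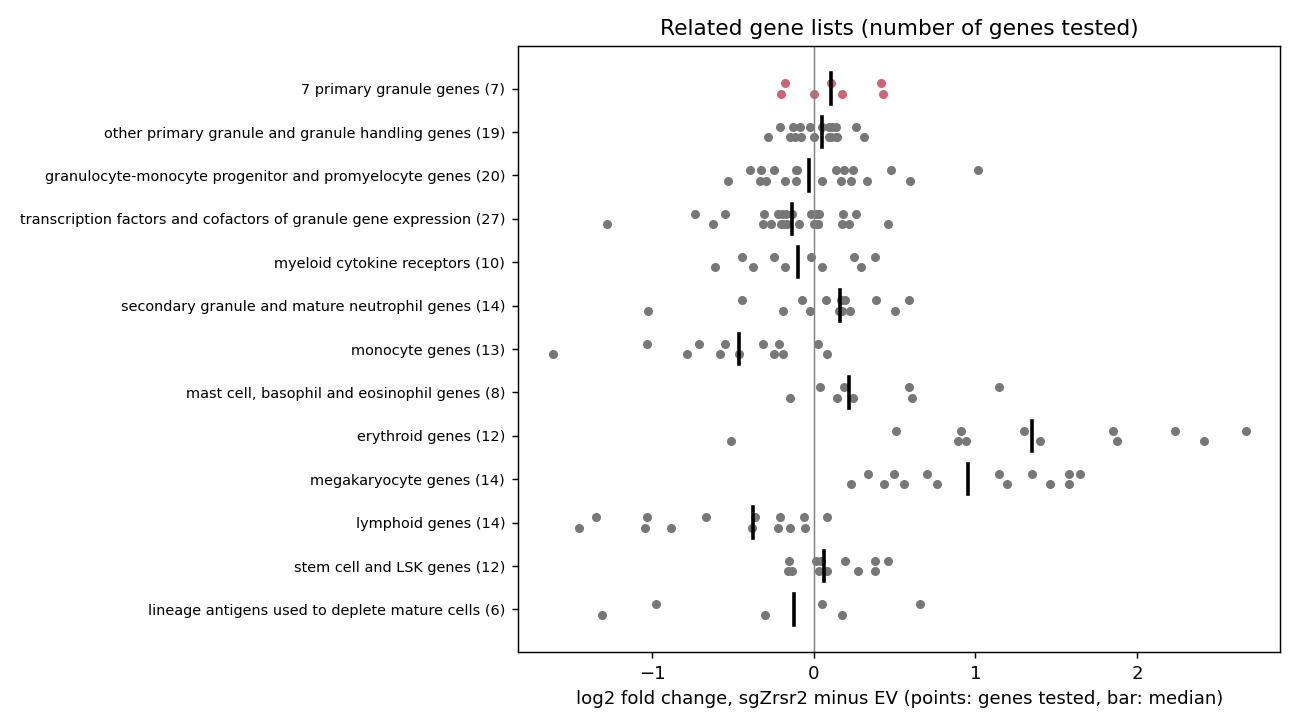
Log2 fold change, sgZrsr2 minus EV (horizontal axis), of each tested gene in the 7 primary granule genes and in 12 related lists, with the number tested in brackets. Points are genes and black bars medians: 0.11 for the 7 genes, -0.47 for the monocyte genes and 1.35 for the erythroid genes, the last being 0.10 without EV 5, sgZrsr2 3 and sgZrsr2 5.

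Beyond the lists, the genes most like the 7 were sought by the correlation of log2 CPM with the mean of the 7, each centred on its own mean, among 9624 genes of at least 10 CPM. The first 10 were Arhgdib (0.931), Tmem180 (0.920), Fam195b (0.915), Grb2 (0.880), Med24 (0.879), Nlrx1 (0.865), Tex261 (0.859), Fam58b (0.857), Ubox5 (0.850) and Iah1 (0.845). Their log2 fold changes lay between 0.02 and 0.15. The first 10 were picked as the highest of 9624 genes, so their values are high by selection. The 7 genes themselves ran from 0.116 for Elane to 0.784 for Gfi1 against this mean. The mean was not scaled, so genes with a wider spread weighed more in it, and it stood for no single gene of the group. Its centred value was lowest in EV 3, -0.39, and highest in sgZrsr2 5, 0.28.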

How the data were processed

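Gene expression was measured in 9 libraries of sorted LSK cells made from 5 ng of total RNA each, with selection of polyadenylated RNA and PCR, per the labels' protocols. The authors deposited RSEM expected counts per Ensembl gene, not normalized. The submitters' processing notes list cutadapt 1.11, RSEM 1.2.30 and GRCm38; the aligner, annotation release and strandedness are not given in the sources used here. RSEM divides reads that match several genes, so between 9.78% and 13.3% of a library's values were fractional.

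Expected counts were rounded. filterByExpr (minimum count 10, minimum total 15) kept 14944 genes, TMM factors ran from 0.894 to 1.07, and all 9 libraries entered edgeR 4.0.16 (glmQLFit, glmQLFTest) with Benjamini-Hochberg adjustment over all genes tested. SE is the log2 fold change over the square root of F, and 95% intervals use the fit's degrees of freedom. Single values were compared by exact permutation over 126 splits (SciPy 1.17.1). Correlations used log2 CPM with a prior count of 2. Lengths are from GENCODE M21. The script was tested on simulated counts. There 48.8% of genes given a log2 fold change of 1, up or down, passed the adjusted threshold in the right direction. For a change of 2 it was 83.5%, and smaller changes were not simulated.

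The 7 genes, the 12 lists (from general knowledge) and the alternatives were chosen with earlier results of these data known. Named by rule were the 7 genes, Zrsr2, Jak2, Kit and Ly6a, in each list the 2 most abundant genes and both extremes of fold change, and the 10 genes most like the mean of the 7; others were singled out after their values were seen. One gene that this rule names is not reported here. Older symbols in the table (Sfpi1, Chi3l3, Hbb-b1, Hbb-b2) were matched by Ensembl identifier. The alternatives tried were upper-quartile or RLE scaling, leaving the filter off, at least 1 CPM in 4 libraries, DESeq2 1.42.0, limma-voom with quality weights (limma 3.58.1), the number as a block, leaving out each library or 3 of them, and averaging sgZrsr2 1 and 2. The length of all exons was added after the data were seen. Mature miRNA and protein sequences were not used here.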

Additional observations from a re-analysis of the deposited data

Results flagged for a closer look

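In 14 sets of values, the 7 genes in each of the 2 groups, the gap between an extreme library and its nearest neighbour was compared with the range of the group, and 3 sets stood out, where chance gives about 0.7. Elane in EV 4 was at 125.8 CPM, below the 209 CPM of the next EV library, a gap of 0.862 of the range. Ms4a3 in EV 4 was at 149 CPM, above the 51.1 CPM of the next, a gap of 0.837 of the range. Both values belong to the same library, one low and one high, and without it the log2 fold change of Elane was 0.29 and that of Ms4a3 was 0.45. Gfi1 in sgZrsr2 2 was at 63.3 CPM, above the 53.4 CPM of the next sgZrsr2 library, a gap of 0.872 of a narrow range, and lay inside the range of the EV libraries. No cause was tested for these.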

How the results depend on the processing

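None of the 7 genes passed the adjusted threshold in any of the 9 alternatives or with any one of the 9 libraries left out. Mpo, Elane and Ctsg kept their direction in all 18, Elane between 0.28 and 0.49 and Mpo between 0.04 (without sgZrsr2 5) and 0.27. Cebpe turned to -0.18 with limma-voom and quality weights and to -0.21 without EV 5, sgZrsr2 3 and sgZrsr2 5. Under the same 2 settings Prtn3 turned to 0.15 and 0.11, and Ms4a3 to 0.52 and 0.02. With each library left out in turn Gfi1 ran from -0.06 (without EV 3) to 0.26, Prtn3 from -0.10 to 0.11 and Ms4a3 from -0.37 to 0.45; the cause was not tested. With the number as a replicate block Prtn3 turned to 0.07 and Ms4a3 to 0.40, Elane was 0.28, and 341 genes had an unadjusted p under 0.05 in place of 1024. No sgZrsr2 library has the number 4, so EV 4 added nothing to the group difference in that fit. Without EV 4 and with no block, Prtn3 was 0.07, Ms4a3 0.45 and Elane 0.29, so the block values cannot be credited to blocking alone. Whether equal numbers pair the samples is not stated in the labels. The correlation of the deviations of same-numbered libraries was -0.23, -0.09, -0.40 and 0.37 for 1, 2, 3 and 5, and of these only sgZrsr2 5 was nearest to its own number. These 4 values cannot decide it, since libraries also differed in other ways, such as in Car1. Over all genes, the adjusted threshold was passed by 16 genes with the DESeq2 Wald test and by 1 with sgZrsr2 1 and 2 averaged. Of the list medians, that of progenitor and promyelocyte genes moved to 0.15 with the block, the lymphoid one to -1.49 without the 3 libraries, and that of lineage antigens to -1.10 with limma-voom and to -0.78 without the 3. Secondary granule genes ran from -1.03 (without sgZrsr2 3) to 0.61 (without EV 5). Depth limits Cebpe, at 25 to 308 counts; counting intervals would not cover the spread between libraries.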

Other observations

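Among genes next to the 7 on their chromosomes, chosen by position, none passed the adjusted threshold. Lpo, lactoperoxidase, begins 2015 bases after Mpo and was at 0.175 to 0.612 CPM over the 9 libraries. Bzrap1, 7653 bases before Mpo, was at 135 CPM in EV 3 and at 48.7 to 87.1 CPM in the other libraries. Ms4a2, a subunit of the IgE receptor 5778 bases from Ms4a3, was at 6.17 CPM in EV 4 and 6.71 CPM in sgZrsr2 5, against 1.06 to 3.12 CPM elsewhere. Slc7a8, an amino acid transporter 10042 bases from Cebpe, was lowest in EV 3, at 24.4 CPM, as Cebpe was, and highest in EV 4, at 56.8 CPM, where Cebpe was at 2.33 CPM.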
